A study of Homo sapiens with 36 samples.

Results

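The interferon lambda genes IFNL1, IFNL2 and IFNL3 and the interferon beta gene IFNB1 were followed across 4 human non-small cell lung cancer lines. They were taken by name: an entry of the deposited files counted where its gene name was one of these, alone or followed by a copy number. That gave 7 of 66366 entries, 2 for each lambda gene (IFNL1 and IFNL1-2, IFNL2 and IFNL2-2, IFNL3 and IFNL3-2) and 1 for IFNB1. The files do not say what the copies are, so each entry is given and the copies are also summed to 4 genes. The genes were chosen by their measured FPKM in these same libraries, between treatments and between lines, so their own values are a description and carry no test.

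The study asked what an aptamer against the epidermal growth factor receptor does to lung cancer cells. MinE07 is an aptamer made of RNA whose fold lets it bind EGFR, C36 is a control aptamer used in a lengthened form, and vehicle was the buffer, DPBS with magnesium. Cells seeded at about 10000 per well took 3 µM of aptamer, or vehicle, for 24 h in medium with 1% serum. Every line had 3 libraries per treatment, which makes 12 groups and 36 libraries, described by the series record as biologically independent experiments. A549 carries wild-type EGFR and was kept in DMEM, whereas H3255 (EGFR L858R), H1975 (L858R with T790M) and H820 (an exon 19 deletion with T790M) were kept in RPMI, so line, genotype and medium cannot be told apart. Each genotype stands on a single line.

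Interferon beta is a type I interferon and the lambda interferons are type III. Cells make them when sensors of RNA or DNA, acting through adaptors such as MAVS and kinases such as TBK1, switch on IRF and NF-kB transcription factors that meet at the promoter. Interferon beta binds the receptor of IFNAR1 and IFNAR2, and the lambda interferons that of IFNLR1, found mainly on epithelial cells, with IL10RB. Both receptors use JAK1 and TYK2 to activate STAT proteins, which join IRF9 to turn on interferon-stimulated genes.

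The lambda genes lie together on chromosome 19 and IFNB1 on chromosome 9. In the GENCODE release 29 annotation of GRCh38, IFNL1 runs over chr19:39296325-39298673 on the plus strand with 5 exons. IFNL2 runs over chr19:39268514-39270092 on the plus strand, and IFNL3 over chr19:39243553-39245129 on the minus strand, each with 6 exons in its longest model. IFNB1 spans chr9:21077105-21077963 on the minus strand as a single exon. The longest IFNL2 and IFNL3 transcripts, of 737 and 734 bases, were identical at 98.0% of 734 aligned positions, and 5.17% of the 100-base stretches of IFNL2 occur unchanged in IFNL3. Fragments of this pair can therefore be assigned to either gene, and the split between them is uncertain. IFNL1 shared no 100-base stretch with either of them, and was identical to IFNL2 at 78.8% of 721 aligned positions.

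The promoters are shown because these genes moved together in A549 and because IRF and NF-kB sites are what is known of how they are switched on. All 4 genes were matched by symbol in RefSeq, and the 200 bases before the RefSeq start are printed 5′ to 3′ on the gene's own strand (GRCh38.p14). The windows are chr9:21077943-21078142 (minus strand) for IFNB1, chr19:39296207-39296406 (plus) for IFNL1 and chr19:39268196-39268395 (plus) for IFNL2. The window of IFNL3, chr19:39245251-39245450 (minus), has the same 200 letters as that of IFNL2, and over 250 bases the pair differ at 1 position. Capitals mark matches on either strand to AANNGAAA, the core that IRF factors bind, and to GGAAATTC, part of an NF-kB site. Both motifs were chosen after these sequences had been read.
IFNB1: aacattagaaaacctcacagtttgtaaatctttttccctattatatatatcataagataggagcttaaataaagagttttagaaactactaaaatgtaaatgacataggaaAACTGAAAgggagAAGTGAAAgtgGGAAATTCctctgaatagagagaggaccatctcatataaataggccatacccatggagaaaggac
IFNL1: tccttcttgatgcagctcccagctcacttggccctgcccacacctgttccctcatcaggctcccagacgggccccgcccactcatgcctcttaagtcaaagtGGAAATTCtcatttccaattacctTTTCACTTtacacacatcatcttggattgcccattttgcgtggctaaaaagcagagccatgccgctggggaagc
IFNL2: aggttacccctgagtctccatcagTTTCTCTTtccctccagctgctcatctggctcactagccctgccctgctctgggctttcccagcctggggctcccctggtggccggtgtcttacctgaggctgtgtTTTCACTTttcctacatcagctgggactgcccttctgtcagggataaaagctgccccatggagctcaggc

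The IFNB1 window holds 2 matches to AANNGAAA, beginning 89 and 76 bases before the start, and 1 to GGAAATTC at 65. The IFNL1 window holds 1 match to each, at 74 and 98 bases, with the NF-kB type match farther from the start. The window shared by IFNL2 and IFNL3 holds 2 matches to AANNGAAA, at 176 and 70 bases, and none to GGAAATTC. Among 35116 RefSeq promoter windows of the same length, 16.1% hold AANNGAAA and 0.849% hold GGAAATTC. The motifs do not overlap each other in these windows. All distances are from the RefSeq start, which differs from the GENCODE start given above. The IFNL1 and IFNB1 windows run past the GENCODE start of the gene, and the IFNL1 match to AANNGAAA lies inside that gene model. The IFNL2 and IFNL3 windows end before theirs. A match describes letters only, and no binding was measured here.

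All 7 entries were above 0 in all 9 A549 libraries, and in A549 every one of them was higher with either aptamer than with vehicle. Values are FPKM, fragment numbers divided by transcript length and library size, a scale that allows levels of different genes to be compared. IFNL1 with its copy was the most abundant of the 4 genes, followed by IFNL3, IFNL2 and IFNB1. The plot of A549 entries shows every library.

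**Figure D1:**
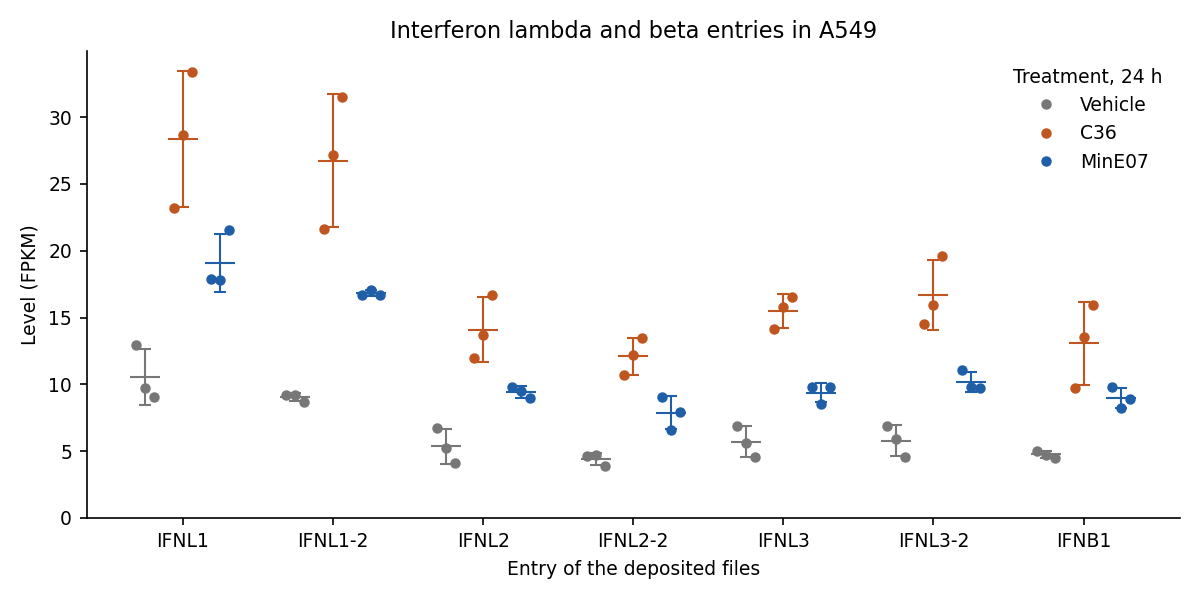
FPKM of the 7 interferon lambda and beta entries in the 9 A549 libraries (points), with the mean and SD of each group of 3 (dash and bar), after vehicle, C36 or MinE07. All aptamer points lie above all vehicle points of the same entry, and in FPKM the C36 group is the most spread, for example 9.71 to 15.9 for IFNB1. On the log2 scale it is not the most spread for every entry (IFNL3: SD 0.114 with C36, 0.271 with vehicle).

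IFNL1, summed over its 2 entries, stood at 22.1, 18.9 and 17.7 FPKM in the vehicle libraries of A549. It stood at 44.8, 55.8 and 64.9 FPKM with C36 and at 34.5, 34.9 and 38.3 FPKM with MinE07. The 3 groups were fully separate, in the order C36, MinE07, vehicle. The mean was 2.82-fold the vehicle mean with C36 and 1.83-fold with MinE07. On the log2(FPKM + 0.5) scale used throughout, the difference from vehicle was 1.46 with C36 and 0.86 with MinE07, and MinE07 was 0.60 below C36 (difference -0.60).

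IFNL2 is the family member whose promoter window is shared with IFNL3. Its sum was 11.4, 9.94 and 7.99 FPKM with vehicle, 22.6, 25.9 and 30.1 FPKM with C36, and 18.9, 16.1 and 16.9 FPKM with MinE07. Again no group overlapped another. The differences from vehicle were 1.38 with C36 and 0.80 with MinE07 on the log2 scale.

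IFNL3 was a little more abundant than IFNL2 in every A549 library. Its sum was 13.8, 11.5 and 9.14 FPKM with vehicle, 28.7, 31.7 and 36.2 FPKM with C36, and 20.8, 18.3 and 19.5 FPKM with MinE07. The groups were separate, and the log2 differences from vehicle were 1.46 with C36 and 0.76 with MinE07. IFNL3 had the lowest MinE07 difference of the 4 genes and, with IFNL1, the highest C36 difference.

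IFNB1, the type I interferon, was at 5.02, 4.71 and 4.50 FPKM with vehicle. It was at 9.71, 13.6 and 15.9 FPKM with C36 and at 9.79, 8.25 and 8.86 FPKM with MinE07. Both aptamer groups lay wholly above vehicle, but they overlapped each other, since the lowest C36 library fell below the highest MinE07 library. The mean was 2.75-fold the vehicle mean with C36 and 1.89-fold with MinE07. The log2 differences were 1.34 and 0.85.

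Counted by entry, 7 of 7 were higher without overlap in C36 than in vehicle libraries, as were 17.4% of the 13425 A549 entries with a mean of at least 1 FPKM. For MinE07 against vehicle it was also 7 of 7, against 11.3% of those entries. Of the 7, 6 were lower without overlap with MinE07 than with C36, against 10.1%. These contrasts chose the genes, so nothing is read from the counts. By size of the log2 difference, the 7 entries ranked 31 to 39 of 13425 for C36 minus vehicle, next to each other apart from 2 other entries, and 51 to 67 for MinE07 minus vehicle.

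Libraries of a group did not vary independently across the entries, which include the copies of the lambda genes. Among C36 libraries, replicate 3 was the highest and replicate 1 the lowest for 7 of 7 entries. Among vehicle libraries, replicate 3 was the lowest for 7 of 7 and replicate 1 the highest for 5. The MinE07 libraries showed no such order, each being the lowest for at least 1 entry. Relative depth, read from the steps between low values, was 0.848 to 1.10 of the median library in the aptamer libraries of A549 and 0.915 to 1.38 in the vehicle libraries, and its part in these values was not tested.

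The mix of the 4 genes varied little beside their total level. IFNL1 made up 43.5% ± 1.6 (SD, n = 9) of their summed FPKM over the A549 libraries, with a range of 41.1% to 45.8%. IFNL3 made up 24.8% ± 1.3, IFNL2 21.1% ± 0.84 and IFNB1 10.6% ± 0.78. By treatment, the IFNB1 share was 10.5% ± 0.91 with vehicle, 10.2% ± 0.91 with C36 and 11.0% ± 0.59 with MinE07 (n = 3 each), and these ranges overlapped. The FPKM of IFNL1 was 3.53 to 4.61 times that of IFNB1 in single libraries.

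**Figure D2:**
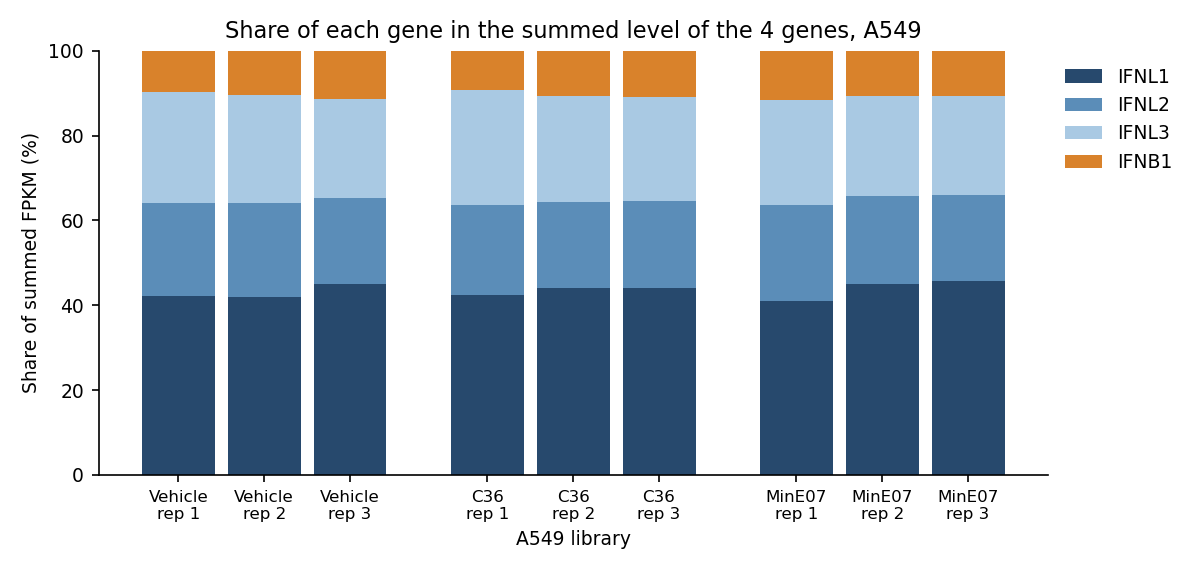
Share of IFNL1, IFNL2, IFNL3 and IFNB1 (copies summed) in their summed FPKM, in percent, for each of the 9 A549 libraries. The bars look alike in all treatments: the IFNL1 share stays between 41.1% and 45.8% and the IFNB1 share between 9.18% and 11.6%.

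In A549 the copies followed their first entries. IFNL1-2 was 0.902 ± 0.092 of IFNL1, IFNL2-2 was 0.848 ± 0.096 of IFNL2 and IFNL3-2 was 1.06 ± 0.075 of IFNL3 (ratio of FPKM, SD, n = 9). The ratio fell to 0.710 for IFNL1 and 0.689 for IFNL2 in vehicle replicate 1, to 0.774 for IFNL1 in MinE07 replicate 3, and to 0.693 for IFNL2 in MinE07 replicate 2. For that reason the vehicle group of IFNL1 alone spread more (10.5 ± 2.1 FPKM) than that of IFNL1-2 (9.03 ± 0.30, n = 3 each). In H1975 with C36, IFNL1 and IFNL1-2 had the same values, at 0.0220, 0.0594 and 0 FPKM. They differed in H3255 C36 replicate 3, at 0.0652 and 0.0130 FPKM. In H3255 C36 replicate 2 both IFNL1 entries stood at 0.0126 FPKM, and the fragment count given below takes their sum as 1 fragment. Whether the 2 entries of a gene hold the same fragments was not tested further. Counts and ranks over the 7 entries are therefore not taken as 7 separate measures.

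Other interferon genes were present in A549 at far lower levels. None of 18 further interferon genes reached a mean of 1 FPKM in any of the 12 groups. IFNL4, the remaining lambda gene of the cluster, was at 0.260, 0.274 and 0.267 FPKM with vehicle, 0.628, 0.650 and 0.638 with C36, and 0.384, 0.492 and 0.439 with MinE07. The groups of this entry were separate and in the same order as those of IFNL1. Its second entry, IFNL4-2, was at 0.361, 0.365 and 0.254 FPKM with vehicle, 0.695, 0.838 and 0.861 with C36, and 0.360, 0.525 and 0.588 with MinE07. There C36 stood apart, while the MinE07 and vehicle groups overlapped. IFNA1, an interferon alpha gene, had group means of 0.144 FPKM with vehicle, 0.262 with C36 and 0.215 with MinE07. IFNE, an epithelial type I interferon encoded near the alpha genes, had 0.130, 0.149 and 0.189 in that order, with overlapping groups. These genes fell below the level tested.

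The protein-coding genes lying next to the interferon genes were also examined. Of 8 other protein-coding genes within 100 kb of the lambda genes, 5 were tested in A549, and limma called 0 of them for either aptamer against vehicle (adjusted p under 0.05, Benjamini-Hochberg over all genes tested). Their log2 differences for C36 minus vehicle ran from -0.07 (PAF1) to 0.14 (SAMD4B). At an unadjusted p under 0.05 there were 3 of the 5 for C36 (SAMD4B, LRFN1 and MED29, at 0.14, 0.13 and 0.11) and 0 for MinE07. Since the share of all genes at that unadjusted threshold was not worked out, these counts are not read as a result about the region. Near IFNB1, FOCAD alone of 4 neighbours was tested, with a difference of -0.08 (adjusted p = 0.450 in limma). PAK4, a kinase gene beside the lambda cluster, was at 33.8 FPKM over the A549 libraries with a C36 difference of 0.01.

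In the other 3 lines the 7 entries were close to 0, and most values were listed at 0. H3255 had 48 of 63 values at 0, H1975 had 41 and H820 had 43, and the highest single values were 0.189, 0.0594 and 0.0523 FPKM. In order of the mean, the 3 A549 groups came first for each of the 4 genes, and no A549 library overlapped any library of another line. The group next in order was H3255 with C36 for each gene, and it overlapped the group below it. From there down, no 2 neighbouring groups in the order were separate.

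**Figure D3:**
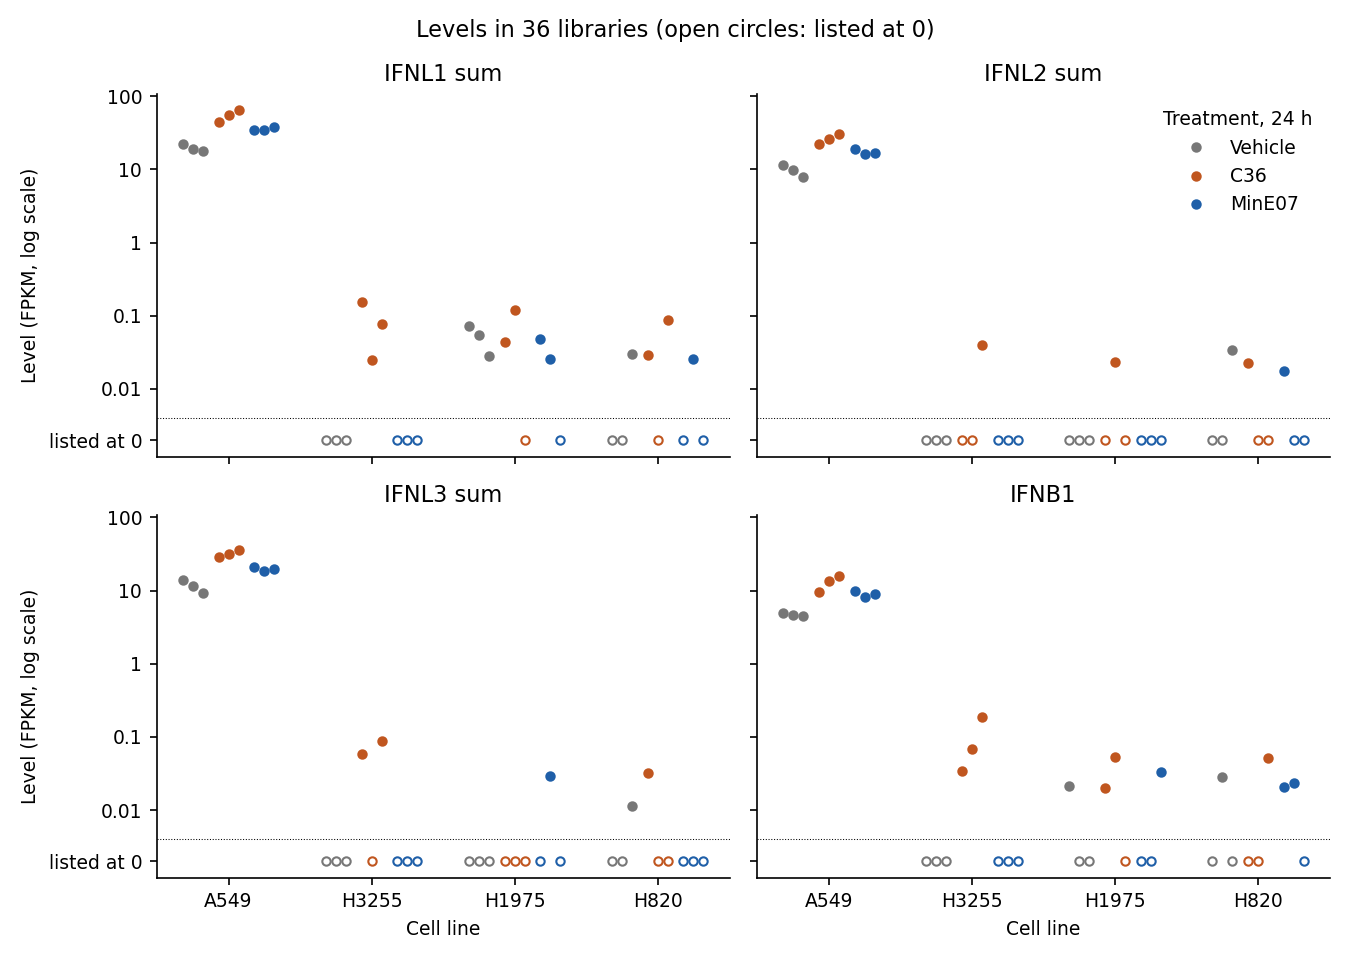
FPKM (log axis) of IFNL1, IFNL2, IFNL3 (copies summed) and IFNB1 in all 36 libraries by cell line and treatment, where open circles under the dotted line are libraries listed at 0. All A549 points lie between 4.50 and 64.9 FPKM and all others at or below 0.189 FPKM. In H3255 the points above 0 are all C36 libraries.

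In H3255 these genes were above 0 in C36 libraries alone. All 42 values of the 7 entries in the 6 vehicle and MinE07 libraries were listed at 0, while 15 of 21 values in the C36 libraries were above 0. IFNB1 was at 0.0344, 0.0682 and 0.189 FPKM and IFNL1, summed, at 0.152, 0.0251 and 0.0783 FPKM in C36 replicates 1, 2 and 3. IFNL3 was above 0 in replicates 1 and 3 and IFNL2 in replicate 3. No C36 library was at 0 for all of the genes.

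Such small values rest on very few fragments. Outside A549, each value times the library's relative depth was a whole multiple of 1 step, to within 0.0073 of a step for IFNB1 (11 values above 0) and 0.0186 for IFNL1 (14 values), so the fragments could be counted. In the H3255 C36 libraries there were 1, 3 and 8 fragments of IFNB1 and 4, 1 and 3 of IFNL1, against 0 in the 6 other H3255 libraries. A count of 0 allows up to 3 fragments, which in the H3255 vehicle libraries is 0.0788 to 0.133 FPKM for IFNB1. With the vehicle group set at 3 fragments, the C36 fragments per depth were 3.41-fold that for IFNB1 and 2.27-fold for IFNL1. These ratios leave out the counting error of the 12 and 8 C36 fragments and take each listed 0 as a count. They are therefore not lower limits and carry no test. Replicate 3 gave 8 of the 12 IFNB1 fragments.

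H1975 and H820 showed no such split by treatment. IFNB1 had 1 fragment in the 3 vehicle libraries of H1975, 3 with C36 and 1 with MinE07, and in H820 it had 1, 2 and 2. IFNL1 had 6, 6 and 3 fragments in H1975 and 1, 4 and 1 in H820. A difference between treatments was not detectable at this depth in these lines. For comparison, the A549 vehicle libraries held 653 IFNB1 and 2439 IFNL1 fragments in all and the C36 libraries 1449 and 5515, if the same step applies. Some abundant genes are listed at 0 in single libraries of the series, so a listed 0 is not always a low count.

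The cells were checked against markers. The 5 epithelial markers (EPCAM, CDH1, KRT8, KRT18 and KRT19) were each above 1 FPKM in all 12 groups. In A549 the leukocyte marker PTPRC was at most 0.0158 FPKM, CD3E was listed at 0 in all 9 libraries, and the plasmacytoid dendritic cell markers CLEC4C and LILRA4 were at 0 and at most 0.0038. The summed list of 5 plasmacytoid markers was higher in A549, at 0.254 to 0.346 FPKM with vehicle, 0.290 to 0.377 with C36 and 0.299 to 0.315 with MinE07. No library of another line exceeded 0.0973 FPKM for that sum. None of these markers reached a mean of 1 FPKM in any group. The summed leukocyte list (6 genes, 1 of them at 0 throughout) did move with C36, from 68.2 to 82.6 FPKM with vehicle to 94.4 to 98.2 with C36, with MinE07 at 73.5 to 86.9. Of these 6 leukocyte genes, 2 had a mean over 1 FPKM in A549 under each treatment. CD68, a lysosomal protein gene that is not limited to leukocytes, made up nearly all of the A549 leukocyte sum. Its part in the interferon values was not tested. With vehicle, the leukocyte sum reached 63.1 FPKM for H1975, 18.5 for H820 and 2.31 for H3255. All 5 fibroblast markers were under a mean of 1 FPKM in A549 and H820. Under each treatment, 1 of the 5 exceeded that mean for H3255. For H1975, 2 exceeded it with vehicle or C36 and 3 with MinE07. In bulk RNA, more cells expressing a gene and more RNA per cell cannot be told apart.

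The genes around the interferons, which the choice of members did not use by name, were tested in limma on the whole table. In A549, 37 of 83 tested genes of the pathway (7 lists, 93 genes) rose with C36 against vehicle and 0 fell. Over all genes, 3.62% were called higher in that comparison and 2.38% lower. The median log2 change of the 83 genes was 0.22, against 0.01 over all 13425. The lists were drawn up with results of these libraries known, so their direction is not independent evidence.

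This count depended on several single libraries, and was lowest without C36 replicate 3, the C36 library that was highest for the interferons. It was 5 without C36 replicate 3, 10 without C36 replicate 2 and 21 without C36 replicate 1. It was 13 without vehicle replicate 3, 15 without vehicle replicate 2 and 51 without vehicle replicate 1, and 24 without any 1 of the MinE07 libraries, which enter through the spread. The 5 genes called in all 9 of these fits were IFIT2, RSAD2, TNFAIP3, SOCS3 and JUN.

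Among the receptors and signal carriers with C36, STAT2 differed by 0.22 ± 0.06 (adjusted p = 0.0571 in limma) and IRF9 by 0.12 ± 0.06 (adjusted p = 0.234 in limma). The receptor chains IFNAR1, IFNAR2 and IL10RB differed by -0.03, 0.06 and -0.02, and the kinases JAK1 and TYK2 by -0.13 and 0.06, none of them called. IFNLR1, the chain that is specific to the lambda interferons, was below the level tested, at 0.610 ± 0.041 FPKM with vehicle, 0.612 ± 0.014 with C36 and 0.632 ± 0.082 with MinE07.

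Levels of the lambda receptor differed between lines. With vehicle, IFNLR1 was at 3.10 ± 0.09 FPKM in H3255, 1.76 ± 0.02 in H820 and 0.699 ± 0.059 in H1975. IRF9 was at 19.1 FPKM in A549 and 3.22 to 3.64 in the others. H3255, H820 and H1975 shared a medium, which A549 did not.

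Upstream, 2 of 8 sensors rose with C36 in A549. They were DHX58, which encodes LGP2 of the RIG-I family (1.27 ± 0.31 to 1.87 ± 0.08 FPKM), and IFIH1, which encodes the long double-stranded RNA sensor MDA5 (34.6 ± 3.4 to 41.7 ± 2.1). Of 10 adaptors and kinases, TICAM1, the adaptor of TLR3, rose by 0.22 ± 0.06 (SE). Of 11 transcription factors 3 rose, namely JUN (an AP-1 subunit), IRF1 and NFKB1, by 0.42 ± 0.05, 0.41 ± 0.06 and 0.23 ± 0.06. JUN was at 12.8, 13.6 and 13.2 FPKM with vehicle and 17.3, 17.9 and 18.5 with C36, without overlap (limma adjusted p = 0.0047). DHX58, IFIH1, TICAM1 and NFKB1 were each called in 1 of the 9 fits that leave out 1 library, and IRF1 in 8, the exception being the fit without C36 replicate 3 (limma adjusted p = 0.0581).

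Downstream, 18 of 27 interferon-stimulated genes rose with C36. The largest called changes were in IFIT2, RSAD2 and MX2, antiviral effector genes, at 0.87 ± 0.11, 0.64 ± 0.09 and 0.58 ± 0.10 (SE). IFIT2 was at 81.9, 59.8 and 65.1 FPKM with vehicle and at 112, 126 and 139 with C36, a gap without overlap (limma adjusted p = 0.0073). Without C36 replicate 3, 2 of the 18 were still called, IFIT2 and RSAD2. MX2 was not (limma adjusted p = 0.0717).

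Feedback inhibitors and cytokine genes rose as well, 5 of 8 and 7 of 11. TNFAIP3, which encodes the NF-kB inhibitor A20, rose from 4.58 ± 0.14 to 7.54 ± 0.85 FPKM (0.66 ± 0.07 on the log2 scale, limma adjusted p = 0.0047). SOCS3, an inhibitor of JAK signalling, rose by 0.40 ± 0.05, and NFKBIE, an NF-kB inhibitor, by 0.35 ± 0.07. The chemokine genes CXCL10, CXCL11 and CCL5 rose by 1.18 ± 0.26, 0.93 ± 0.21 and 0.70 ± 0.16, each with a limma adjusted p between 0.0466 and 0.0485, and CXCL10 and CXCL11 were called in 1 and CCL5 in 2 of the 9 fits that leave out 1 library. Without C36 replicate 3 their limma adjusted p-values were 0.148, 0.133 and 0.111. The largest pathway change, that of CXCL10, was smaller than that of each interferon entry.

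**Figure D4:**
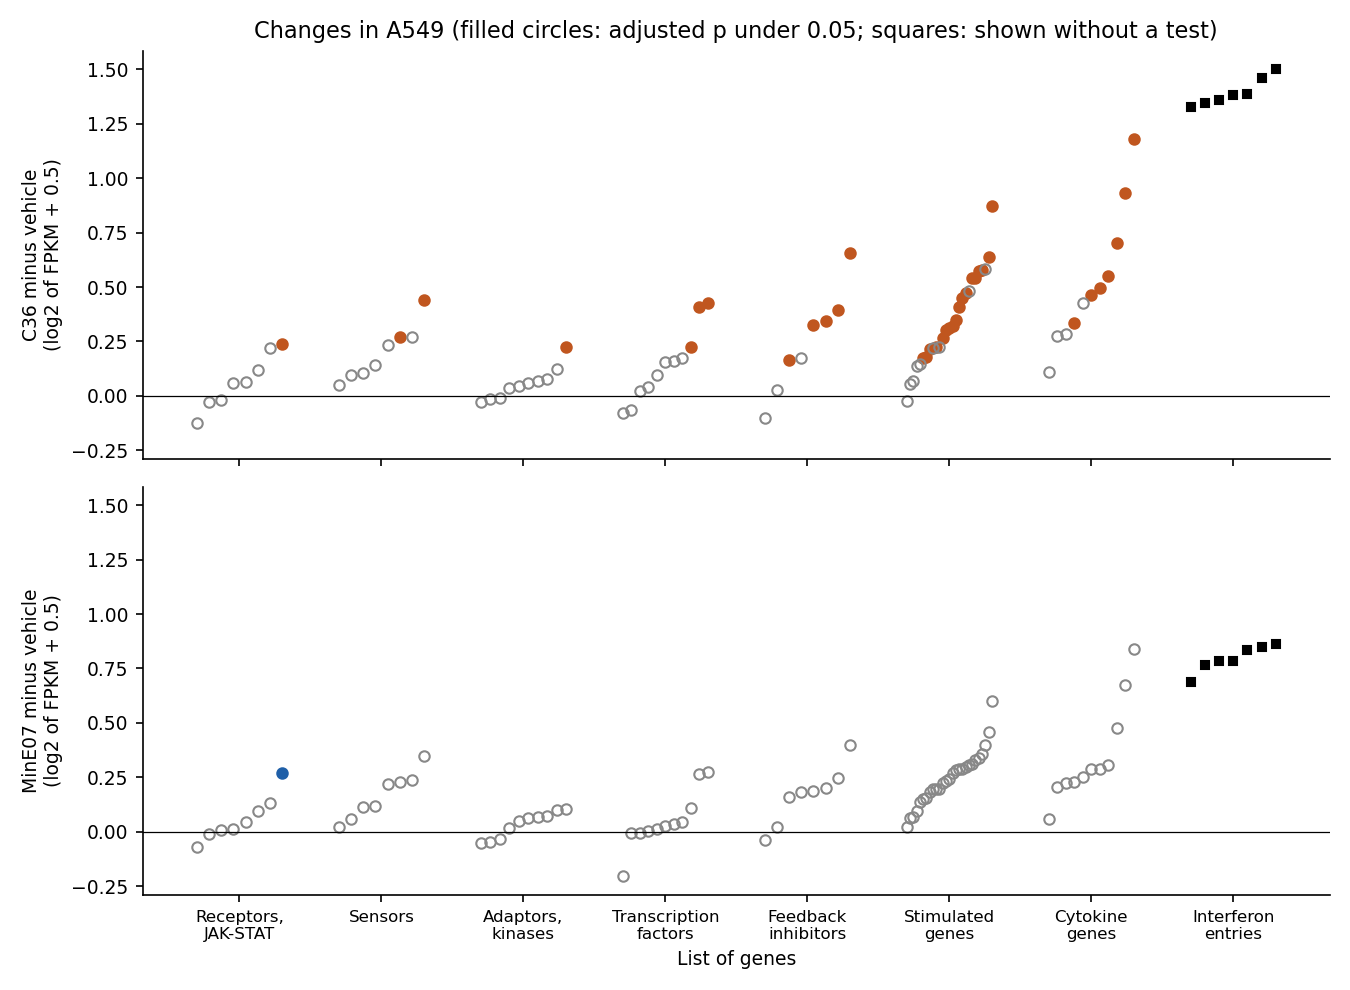
Log2 changes in A549 for C36 minus vehicle (top) and MinE07 minus vehicle (bottom), 1 point per gene by list, filled where the limma adjusted p was under 0.05; squares are the 7 interferon entries. With C36, 37 of 83 pathway genes are filled and all of them lie above 0, whereas with MinE07 1 is. The interferon entries lie at 1.33 to 1.50 with C36 and 0.69 to 0.86 with MinE07.

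With MinE07, 1 of the 83 pathway genes was called against vehicle in A549, where 0.216% of all genes were called. At an unadjusted p under 0.05 there were 45 of 83. The share of all genes at that unadjusted threshold was not worked out, so nothing is read from this count. The median log2 change of the 83 was 0.18, against 0.02 over all genes. The count was 40 without vehicle replicate 1, the vehicle library in which 5 of the 7 interferon entries were highest, 1 without C36 replicate 3 and 0 without any other library. CXCL10 shows this: its vehicle libraries stood at 7.62, 4.05 and 3.85 FPKM and its MinE07 libraries at 8.82, 9.17 and 9.76 (0.84 ± 0.26, limma adjusted p = 0.230).

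Between MinE07 and C36 in A549, limma called 0 of the 83 pathway genes and 0% of all genes. Of the 83, 11 had an unadjusted p under 0.05, a threshold for which no share of all genes was worked out. With the spread estimated over all 36 libraries instead, 3 pathway genes were called. The interferon entries, given here only side by side, were 0.49 to 0.69 lower with MinE07 than with C36 (log2 differences of -0.49 to -0.69). Both aptamer comparisons share the vehicle libraries.

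H3255 is the line where interferon fragments appeared with C36. There, 5 of 56 tested pathway genes were called for C36 against vehicle, 4 higher and 1 lower, where 0.305% of all genes were called. ISG15, a ubiquitin-like antiviral protein gene, was at 7.79, 7.57 and 6.54 FPKM with vehicle, 22.8, 16.4 and 15.6 with C36 and 7.76, 7.25 and 8.13 with MinE07 (C36 minus vehicle 1.25 ± 0.14, limma adjusted p = 0.0370). IFI6, another stimulated gene, rose by 1.11 ± 0.15, IRF9 by 0.71 ± 0.11 and IFIH1 by 0.40 ± 0.06 (SE). ICAM1, an adhesion molecule gene, fell by 0.39 on the log2 scale (SE 0.03). C36 replicate 1, the highest for ISG15 and IRF9, held 1 of the 12 IFNB1 fragments and 4 of the 8 IFNL1 fragments.

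This H3255 count also depended on single libraries. It was 3 without C36 replicate 1 or 3, 1 without C36 replicate 2, 1 without any 1 vehicle library, 2 without MinE07 replicate 2 and 1 without MinE07 replicate 3. ICAM1 alone was called in all 9 of these fits. A pair of genes below the level tested was picked after their values were seen. CXCL10 was at 0.0524, 0.136 and 0.141 FPKM with C36 and listed at 0 in the 6 other libraries. IFIT2 was at 1.46 to 1.64 with C36 and 0.254 to 0.357 with MinE07, against 0.149 to 0.201 with vehicle. It was thus higher with MinE07 than with vehicle as well, without overlap. In H820, CXCL10 was at 0.0614 to 0.139 with C36 and 0.0796 to 0.125 with MinE07, against 0 to 0.0409 with vehicle. CXCL11 showed no such gap in H820.

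For MinE07 in H3255, limma called 24 of 56 pathway genes against vehicle, where 38.6% of all genes were called, and 31 of 56 against C36, where 36.7% were. Of the 24, 11 were higher and 13 lower. Among the 9 stimulated genes tested, 3 were higher and 1 lower. IFI6 was one of the higher, by 0.56 (limma adjusted p = 0.0211), and was called in 4 of the 9 fits that leave out 1 library. Against C36, 7 were higher and 24 lower, among them ISG15 (-1.17 ± 0.14), IRF9 (-1.12 ± 0.11) and OAS1 (-0.79 ± 0.14). STAT2 rose against both, by 0.49 ± 0.04 over vehicle and 0.52 ± 0.04 over C36 (SE). The interferon genes themselves were listed at 0 in all MinE07 libraries of this line.

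In H1975, 1 of 75 pathway genes was called for C36 against vehicle (0.233% of all genes were), 17 for MinE07 against vehicle (23.7%) and 18 for MinE07 against C36 (19.9%). The first was IFIT3, which fell by 0.24 on the log2 scale (SE 0.04) and was called in 2 of the 9 fits that leave out 1 library. In H820 the counts were 3 of 70 (2.85%), 3 (3.02%) and 0 (0.0364%), with 4 at an unadjusted p under 0.05 in the last. No share of all genes was worked out for that unadjusted threshold. JUN rose with both aptamers in H820, by 0.25 ± 0.03 and 0.27 ± 0.03 (SE). Leaving out 1 library, the H1975 count for C36 ran from 0 to 4 (4 without vehicle replicate 1) and that for MinE07 against vehicle from 11 (without MinE07 replicate 3) to 20. In H820 they ran from 1 (without C36 replicate 1 or 2, among others) to 4 (without MinE07 replicate 1) and from 1 to 3.

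Whether the pathway answered differently in A549 was tested with interaction terms in 1 fit of all 36 libraries. For C36 minus vehicle, 25 of 86 genes differed between A549 and H1975 (3.53% of all genes did), all 25 higher in A549. Against H820 it was 30 of 86 (6.16%), 29 of them higher in A549. Against H3255 it was 27 of 86 (3.47%), of which 15 were higher and 12 lower in A549. IFIT2, tested in both lines, changed more with C36 in A549 than in H1975, by 0.92 ± 0.11 (limma adjusted p = 4.66e-06). ISG15 and IRF9, tested in both A549 and H3255, changed more in H3255 on the log2 scale (-0.93 ± 0.14 and -0.59 ± 0.13). Their vehicle levels were far apart: ISG15 was at 814 to 990 FPKM in A549 and 6.54 to 7.79 in H3255, and IRF9 at a mean of 19.1 and 3.22. The counts include genes with little signal in 1 of the lines, since 83 pathway genes reached the level tested in A549, 75 in H1975, 70 in H820 and 56 in H3255, and for such genes the difference rests on the pseudocount.

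For MinE07 minus vehicle, 34 of 86 differed between A549 and H3255 (24.5% of all genes did), 18 between A549 and H1975 (13.2%) and 14 between A549 and H820 (2.84%).

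The genes most like the interferons in pattern were looked for across all 16865 genes that passed the level in at least 1 line. Likeness was Pearson's r of log2(FPKM + 0.5), centred within each line, over 36 libraries that share lines, treatments and depth, and it has no p. The 3 genes most like the summed lambda entries were PPP1R15A (r = 0.90), CXCL10 (0.89) and CXCL11 (0.88). They were also the 3 most like IFNB1, at 0.93, 0.89 and 0.88. This order holds for the pseudocount of 0.5 with centring: for the lambda sum they ranked 31, 7 and 9 with a pseudocount of 0.1, and 3126, 22 and 19 without centring. For IFNB1 they ranked 4, 2 and 20, and 2891, 1 and 2. Nearly all of the lambda and beta variation after centring lies in A549.

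PPP1R15A encodes GADD34, a phosphatase subunit that reverses translational arrest under stress. In A549 it was at 27.4, 28.5 and 28.0 FPKM with vehicle, 51.9, 62.2 and 70.7 with C36 and 44.2, 42.8 and 39.3 with MinE07. The groups were separate, and C36 replicate 3 was again the highest. The gene was selected for following the interferon entries over these libraries, so this is a description with no test. The log2 difference from vehicle was 1.11 with C36 and 0.58 with MinE07. In the other lines its C36 difference was 0.09 to 0.15, and its MinE07 difference in H3255 was -0.16.

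**Figure D5:**
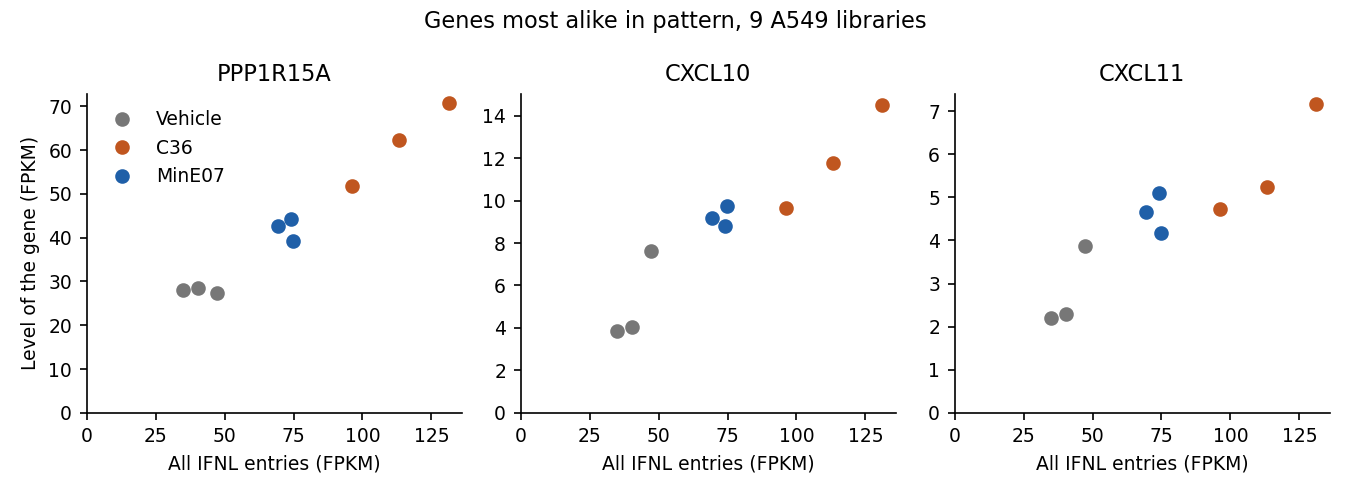
FPKM of PPP1R15A, CXCL10 and CXCL11 (vertical) against the summed FPKM of the 6 lambda entries (horizontal) in the 9 A549 libraries, coloured by treatment. The lambda sum runs from 34.8 to 131 FPKM and all 3 genes are highest in the same C36 library. One vehicle library stands above the other 2 for CXCL10 (7.62 against 4.05 and 3.85) and CXCL11, but not for PPP1R15A.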

How the data were processed

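RNA was measured in 36 libraries, 3 for each of 4 lines under 3 treatments. For every library, the authors deposited gene-level FPKM values. Per the submitters' processing notes, HISAT2 and Cuffdiff were used with GRCh38.p12 (hg38), with no role stated. Per the labels' protocols, libraries were poly-A selected, stranded and read as pairs of 100 bases. No counts were used, so depth is relative: 0.590 to 1.38 of the median library, from steps between low values.

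Entries without a unique name were left out. Values were tested as log2(FPKM + 0.5) in limma 3.58.1 (R 4.3.3, trend and robust moderation), 9 libraries per line, genes with a mean of at least 1 FPKM, two-sided, Benjamini-Hochberg over all genes, called at an adjusted p under 0.05. On simulated data at the sizes of A549 C36 against vehicle (13425 genes), 85% of log2 changes of 0.5 and 94% of 1 were recovered. Of 13225 unchanged genes, 15 were called. The simulated noise was drawn independently for each gene, so it does not cover libraries in which many genes deviate together. Python 3.11.15 and Biopython 1.88 were used otherwise. The interferon genes and the gene lists were chosen with earlier results of these data known. Named were all interferon entries, receptor and JAK-STAT genes (1 item is not reported here), up to 3 called genes per other list and comparison with the largest change, and the 3 most alike genes. Pseudocount, filter, scaling, copies, replicate block, pooled fit and left-out libraries were varied.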

Additional observations from a re-analysis of the deposited data

Results flagged for a closer look

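The change of pathway genes with an aptamer differed between lines by an interaction test. For C36 minus vehicle, limma called 25 of 86 pathway genes between A549 and H1975, 27 between A549 and H3255 and 30 between A549 and H820. For MinE07 minus vehicle it called 18, 34 and 14 in the same order. Of all genes, 3.53%, 3.47% and 6.16% were called for C36 in that order. The shares for MinE07 were 13.2%, 24.5% and 2.84%. The counts include genes with little signal in 1 of the lines. Line, genotype and medium cannot be told apart here. Groups of 3 are too small for a search for single outlying libraries.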

How the results depend on the processing

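The A549 differences of the interferon genes kept their direction under all alternatives run and moved by less than the spread between libraries. Leaving out 1 library, C36 minus vehicle ran from 1.34 to 1.60 for IFNL1, 1.25 to 1.49 for IFNL2, 1.32 to 1.60 for IFNL3 and 1.19 to 1.54 for IFNB1. MinE07 minus vehicle ran from 0.79 to 0.95, 0.67 to 0.91, 0.62 to 0.90 and 0.79 to 0.91. MinE07 minus C36 ran from -0.74 to -0.47, -0.68 to -0.48, -0.78 to -0.61 and -0.69 to -0.34. In H3255, C36 minus vehicle was 0.22 for IFNL1 (0.14 to 0.30) and 0.25 for IFNB1 (0.14 to 0.32), and 0.83 and 0.90 with a pseudocount of 0.1, since so low a value depends on it.

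Counts of pathway genes were less stable. Without a level filter, which adds genes to the adjustment, C36 against vehicle gave 5 in A549, 0 in H1975 and 1 in H820. MinE07 against vehicle then gave 0 in A549, 7 in H1975 and 1 in H820, and MinE07 against C36 gave 8 in H1975. In the fit of all 36 libraries C36 gave 3 in H1975, 30 in H3255 and 7 in H820, MinE07 against vehicle 25 in A549 and 5 in H820, and MinE07 against C36 3 in A549 and 54 in H3255. The A549 count for MinE07 against vehicle was 3 with a pseudocount of 0.1, 8 at a mean of at least 5 FPKM, 4 after rescaling and 3 with copies summed. C36 in H1975 gave 2 at a mean of at least 5 FPKM and 2 after rescaling, and in H3255 8 after rescaling and 8 with copies summed. The A549 to H820 difference for MinE07 was 9 genes with a pseudocount of 0.1. The cause was not tested.

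Leaving out 1 library, counts for C36 against vehicle, MinE07 against vehicle and MinE07 against C36 ran from 5 to 51, 0 to 40 and 0 to 0 in A549, 0 to 4, 11 to 20 and 8 to 20 in H1975, 1 to 5, 19 to 25 and 26 to 33 in H3255, and 1 to 4, 1 to 3 and 0 to 0 in H820. Same-numbered libraries deviated together in some pairs and not in others (r from -0.16 to 0.25, the highest in H3255), and since not every pair was over 0.1 the numbers were not taken as a pairing. With a replicate block, C36 gave 14 in A549, 0 in H1975, 3 in H3255 and 1 in H820, and MinE07 against vehicle 0 in A549 and 1 in H820.

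Likeness to the summed lambda entries was 0.64 for PPP1R15A, 0.71 for CXCL10 and 0.69 for CXCL11 with a pseudocount of 0.1, and 0.56, 0.995 and 0.996 without centring. Likeness to IFNB1 was 0.77, 0.78 and 0.69, and 0.59, 0.996 and 0.996. Over the A549 libraries alone, a choice made after seeing the data, PPP1R15A ranked 14 for the lambda sum and 4 for IFNB1, CXCL10 82 and 149, and CXCL11 140 and 154. Of 3062 alternatives for single named genes, which include genes that were not called, 297 lost the call, 20 gained one and 0 reversed. A change of sign counted as reversed only where the gene was called in the reported fit or in the alternative.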
